A study of Mus musculus with 6 samples.

Results

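Selectin ligand synthesis was followed through 9 genes, Chst2, Fut7, Fut4, Gcnt1, St3gal4, St3gal6, B4galt1, Selplg and Cd44, of the 54532 genes listed in the count table. They were taken by gene symbol, and all 9 were found and passed the filter on low counts, as 9 of 15938 tested genes. Chst2 was selected on its count, which rose strongly with the drug in these same libraries, so its values are given as a description without a test and it is left out of the counts of genes that passed the test. The other 8 were listed for their place in the pathway, with earlier results of these data in view.

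The libraries came from CD4+ T cells of the spleens of male C57BL/6 mice aged 6 to 8 weeks, enriched by magnetic negative selection, which does not separate naive from memory cells. All cultures received plate-bound anti-CD3, anti-CD28, IL-2, IL-12 and anti-IL-4, the conditions that drive T helper 1 (Th1) cells, and the labels give 72 h of culture. One group of 3 cultures (Th1) had the vehicle, 0.1% DMSO, and the other group of 3 had 500 nM ALX-5407, which blocks glycine uptake through the transporter GlyT1. The dose and vehicle are from the study's methods, which state 24 h of exposure to the drug for RNA sequencing. Another part of the methods has cells harvested for RNA sequencing after 72 h of stimulation. The labels name the drug together with the 72 h of culture, so the length of exposure is not settled. The labels call the cultures biological replicates without saying whether they came from separate mice. The p-values set each group difference against the variation between these cultures, which may not be variation between mice.

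Selectins are adhesion receptors on endothelium, platelets and leukocytes that bind sugar structures on passing cells and let them roll along the vessel wall. Their ligands are sialylated and fucosylated glycans of the sialyl Lewis x type, which Golgi enzymes build stepwise on carrier proteins: a core 2 branch is started, galactose and N-acetylglucosamine are added, and sialic acid, fucose and sometimes sulfate complete the structure. Activated Th1 cells are known for making functional ligands for P- and E-selectin on the mucin PSGL-1, encoded by Selplg. Transcript levels do not measure the glycans themselves.

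The 6 libraries held 30801753 to 36727788 counts, and replicates differed by more than counting noise, with a chi-square over its degrees of freedom of 5.35 to 20.2. Levels are given in CPM, counts relative to the scaled library total. Summed over 7 T cell markers, the level was 2401 to 2514 CPM in Th1 libraries and 2373 to 2402 CPM with ALX-5407. At an adjusted p under 0.05 in edgeR, 1 of the 7 was higher and 3 were lower. By the same test 24.5% of all tested genes were higher and 23.2% lower. Sums over the 2 CD8 markers were 9.25 to 9.59 against 6.71 to 8.87 CPM (1 of 2 lower), over the 4 B cell markers 5.52 to 6.73 against 7.42 to 10.4 CPM (2 of 4 higher), and over the 6 erythroid and platelet markers 0.522 to 1.21 against 1.48 to 2.98 CPM (1 of 2 tested higher). The myeloid sum was 70.3 to 75.4 CPM against 24.3 to 31.9 CPM and rested on Ly6g, with S100a8 and S100a9 at 0 in every library and no other myeloid marker above 15 counts. The endothelial sum was 73.0 to 81.5 against 62.1 to 64.6 CPM and rested on Pecam1, with Cdh5 at 0, and neither NK marker exceeded 9 counts in any library. The part of these shifts in the results below was not tested. In bulk RNA, fewer cells of a type and less RNA per cell cannot be told apart.

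Windows upstream of the RefSeq start sites (GRCm38.p6) are printed for the 4 genes whose groups did not overlap, Chst2, Gcnt1, B4galt1 and Cd44. All 4 lie on the minus strand. Groups also did not overlap, in either direction, for 55.5% of all tested genes, and Chst2 was chosen for its rise. Capitals mark matches to the motifs searched, and the B4galt1 window leaves out the last 21 bases, which lie inside the counted gene.
Chst2, chr9:95407271-95407520: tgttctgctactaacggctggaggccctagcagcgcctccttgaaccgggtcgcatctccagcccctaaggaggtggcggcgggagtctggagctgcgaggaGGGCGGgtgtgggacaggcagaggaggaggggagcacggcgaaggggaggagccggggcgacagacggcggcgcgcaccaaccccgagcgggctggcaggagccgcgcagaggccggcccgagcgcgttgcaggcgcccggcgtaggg
Gcnt1, chr19:17356668-17356917: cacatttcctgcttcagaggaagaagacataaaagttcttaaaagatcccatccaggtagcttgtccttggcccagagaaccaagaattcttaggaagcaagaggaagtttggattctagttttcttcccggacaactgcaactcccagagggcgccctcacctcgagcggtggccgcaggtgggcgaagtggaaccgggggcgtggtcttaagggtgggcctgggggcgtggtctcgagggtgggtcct
Gcnt1 further upstream, chr19:17372845-17373094: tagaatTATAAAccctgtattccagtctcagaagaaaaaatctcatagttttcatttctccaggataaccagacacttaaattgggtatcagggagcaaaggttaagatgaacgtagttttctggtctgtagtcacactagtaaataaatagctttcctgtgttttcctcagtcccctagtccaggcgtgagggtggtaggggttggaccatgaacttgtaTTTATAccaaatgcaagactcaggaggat
B4galt1, chr4:40854006-40854234: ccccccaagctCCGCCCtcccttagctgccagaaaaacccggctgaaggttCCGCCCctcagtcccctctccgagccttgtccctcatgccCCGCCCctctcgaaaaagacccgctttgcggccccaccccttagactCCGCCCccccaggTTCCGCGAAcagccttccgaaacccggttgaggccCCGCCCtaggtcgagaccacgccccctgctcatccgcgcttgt
Cd44, chr2:102901666-102901915: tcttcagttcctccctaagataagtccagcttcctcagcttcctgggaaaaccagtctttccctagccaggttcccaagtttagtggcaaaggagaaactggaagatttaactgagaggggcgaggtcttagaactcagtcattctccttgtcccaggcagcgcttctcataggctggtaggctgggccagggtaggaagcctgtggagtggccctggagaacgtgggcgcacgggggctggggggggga

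Both strands of the 250 bases before each start were searched for a GC box (GGGCGG, in 33.0% of 32536 distinct windows of this length), an E-box (CACGTG, 6.04%), an AP-1 site (TGANTCA, 6.73%), a STAT site (TTCNNNGAA, 7.04%), an amino acid response motif (TGATGNAA, 3.40%), a T-box motif (GGTGTGA, 3.33%) and a TATA box (TATAAA, 12.3%). The Chst2 window held 1 GC box, at positions -148 to -143 from the start, and no other match. The B4galt1 window held 5 GC boxes, all on the opposite strand, and 1 STAT site at -99 to -91, none of them overlapping. RefSeq gives 3 windows for Gcnt1. The one at the 5′ end of the counted gene, and the one that is not printed, held none of the 7 motifs, while the one further upstream, which ends at the 5′ end of the gene in GENCODE M21, held 2 TATA boxes, at -244 to -239 and, on the opposite strand, at -29 to -24. The Cd44 window held no match. Over the full 250 bases, including those of B4galt1 not printed, the GC content was 72.8% for Chst2, 66.4% for B4galt1 and 56.4% for Cd44. For the printed Gcnt1 windows it was 55.6% and 40.4%, and the median over all windows was 52.4%. A match is a run of letters and not a measured binding site. The RefSeq start of Chst2 lies 548 bases beyond the 5′ end of the gene as counted, and no window for Selplg was in the table used.

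Chst2 (ENSMUSG00000033350, chr9:95399292-95406722 on the minus strand of GRCm38, 2 exons) encodes a Golgi sulfotransferase that adds sulfate to position 6 of N-acetylglucosamine, a modification found on a class of selectin ligands. Its counts were 308, 249 and 300 in the Th1 libraries and 2252, 2315 and 2252 with ALX-5407. In CPM the level was 9.46, 7.94 and 9.75 without the drug and 63.8, 62.1 and 64.2 with it, or 9.05 ± 0.970 against 63.4 ± 1.15 (SD, n = 3 each), a ratio of 7.001. The groups lay far apart, and the lowest ALX-5407 library was 6.37 times the highest Th1 library. The log2 fold change of 2.81 was the 25th largest rise of the 15938 tested genes, and 6 of 12117 genes with a mean of at least 50 counts, Chst2 among them, reached it. It is the value the gene was chosen for.

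Of the closest relatives of Chst2 that use the same acceptor, Chst4 and Chst5 had no count in any library, where 3 counts, taken as the limit that a count of 0 allows, correspond to 0.0804 to 0.0974 CPM. Chst7 had 3 counts over all 6 libraries. Chst2 held 100% of the summed level per exon length of these 4 enzymes without the drug and 99.9% with it.

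**Figure D1:**
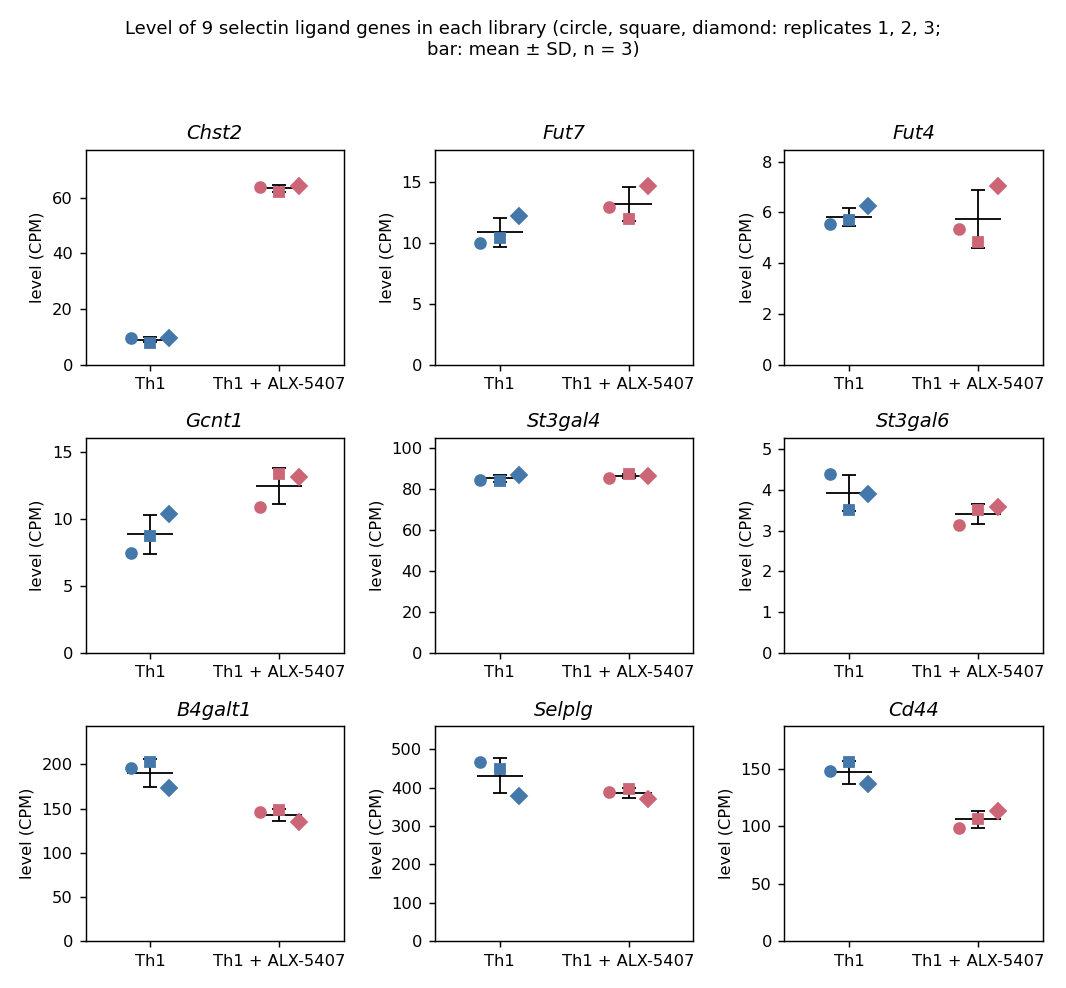
Level in CPM of each of the 9 genes (one panel each, linear axis from 0) in the 3 Th1 and 3 ALX-5407 libraries, with circle, square and diamond for replicates 1, 2 and 3 and bars for the mean ± SD. The Chst2 panel shows 7.94 to 9.75 CPM against 62.1 to 64.2 CPM, while the groups overlap for Fut7, Fut4, St3gal4, St3gal6 and Selplg.

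Among the other 8 genes, 1 was higher with ALX-5407 (Gcnt1), 2 were lower (B4galt1 and Cd44) and 5 did not pass the test, at an adjusted p under 0.05 in the quasi-likelihood test of edgeR over all genes. Over all tested genes 24.5% were higher and 23.2% lower, so 3 of 8 lies near the background of 47.7% called in either direction. None of the 8 was past a log2 fold change of 1 in either direction as well, against 3.36% of all tested genes upward and 6.68% downward. The groups did not overlap for 1 gene upward and 2 downward, where 28.4% and 27.1% of all tested genes did so, and 55.5% in either direction. The median log2 fold change of the 8 was -0.090, beside 0.0053 over all tested genes. These counts and medians describe the 8 genes and are not a test of the pathway.

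**Figure D2:**
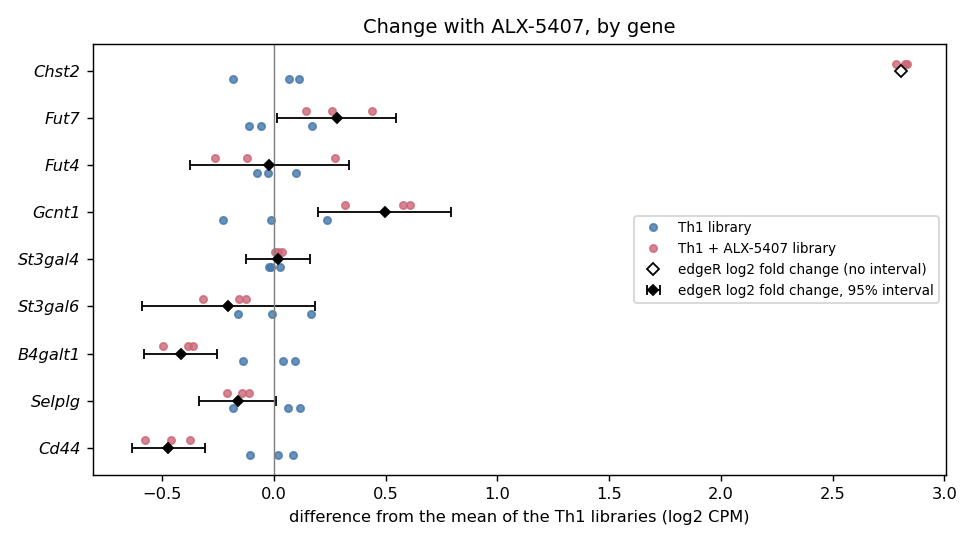
Difference of each library from the mean of the Th1 libraries on the log2 CPM scale (blue, Th1; red, ALX-5407), with the edgeR log2 fold change and its 95% interval as diamonds and bars. Chst2, drawn without an interval, lies at 2.81, and of the others only the intervals of Fut7, Gcnt1, B4galt1 and Cd44 exclude 0.

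Fut7 and Fut4 encode the α-1,3-fucosyltransferases that put fucose on the sialylated lactosamine chain, and Fut7 is the enzyme most closely tied to selectin binding in lymphocytes. Fut7 (ENSMUSG00000036587, chr2:25423267-25426374) had 10.01, 10.4 and 12.2 CPM in Th1 libraries and 12.97, 12.0 and 14.7 CPM with ALX-5407. The lowest drug-treated library lay below the highest Th1 library, so the groups overlapped. The means were 10.9 ± 1.16 and 13.2 ± 1.38 CPM, with a log2 fold change of 0.28 (SE 0.125, 95% interval 0.016 to 0.55, adjusted p = 0.0754 in edgeR), so Fut7 did not pass the test, although the interval, which is not adjusted for the number of genes, excludes 0. It did pass when libraries were scaled by total count alone (log2 fold change 0.34, adjusted p = 0.0398 in edgeR) and without Th1 replicate 3 (0.35, adjusted p = 0.0323).

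Fut4 (ENSMUSG00000049307, chr9:14748320-14752393, a single exon) had 5.53, 5.71 and 6.24 CPM without and 5.35, 4.85 and 7.04 CPM with ALX-5407. One drug-treated library lay above and the other two lay below all Th1 libraries. The means were 5.83 ± 0.369 and 5.75 ± 1.15 CPM, and the log2 fold change was -0.020 (SE 0.168, 95% interval -0.37 to 0.34, adjusted p = 0.938 in edgeR). The third α-1,3-fucosyltransferase examined, Fut9, had no count. Per exon length, the ratio of Fut7 to Fut4 was 3.13, 3.15 and 3.38 without the drug and 4.19, 4.26 and 3.61 with it, and the Fut7 share of both was 76.3% ± 0.756 without and 80.0% ± 1.49 with the drug. The groups did not overlap in this ratio, which was not tested.

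Gcnt1 (ENSMUSG00000038843, counted on chr19:17326141-17356667) encodes the core 2 β-1,6-N-acetylglucosaminyltransferase, which opens the O-glycan branch on which the selectin-binding glycans of PSGL-1 are built. GENCODE M21 carries the gene further upstream than the deposited coordinates, to position 17372844. Its level was 7.49, 8.71 and 10.4 CPM in Th1 libraries and 10.9, 13.4 and 13.1 CPM with ALX-5407, and every drug-treated library lay above every Th1 library, though the nearest pair was close. The mean rose from 8.86 ± 1.44 to 12.5 ± 1.34 CPM, 1.41-fold, with a log2 fold change of 0.50 (SE 0.140, 95% interval 0.20 to 0.79, adjusted p = 0.00797 in edgeR). The call was lost without Th1 replicate 1, the lowest of the 6 libraries for this gene (0.38, adjusted p = 0.0530). Of the other Gcnt enzymes, Gcnt4 rose, from 2.28 ± 0.399 to 11.4 ± 0.311 CPM (log2 fold change 2.32, SE 0.160, adjusted p = 1.34e-08). Gcnt3, with 32 counts at most in any library, fell from 0.864 ± 0.110 to 0.261 ± 0.0739 CPM (log2 fold change -1.72, SE 0.445, adjusted p = 0.00450). By level per exon length the Gcnt4 share of the 4 Gcnt enzymes went from 17.6% ± 3.93 to 46.3% ± 3.38, while that of Gcnt1 went from 62.0% ± 5.53 to 46.1% ± 3.11 and that of Gcnt3 from 7.92% ± 1.40 to 1.24% ± 0.309.

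B4galt1 (ENSMUSG00000028413, chr4:40804602-40854005) encodes the main β-1,4-galactosyltransferase of lactosamine chains. It had 195, 203 and 173 CPM in Th1 libraries and 146, 148 and 135 CPM with ALX-5407, with every treated library below every Th1 library. The mean fell from 190 ± 15.6 to 143 ± 7.03 CPM (log2 fold change -0.42, SE 0.0769, 95% interval -0.58 to -0.25, adjusted p = 0.000312 in edgeR). By level per exon length the B4galt1 share of the 7 B4galt enzymes was 68.9% ± 2.12 without and 60.1% ± 1.91 with ALX-5407. B4galt5 rose from 31.0 ± 1.33 to 40.3 ± 1.82 CPM, B4galt4 rose from 2.45 ± 0.469 to 5.85 ± 0.878 CPM and B4galt3 fell from 30.8 ± 0.933 to 20.8 ± 1.19 CPM.

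St3gal4 and St3gal6 encode α-2,3-sialyltransferases that cap the lactosamine chain before fucose is added. St3gal4 (ENSMUSG00000032038, chr9:35046576-35119268) had 84.5, 84.0 and 86.9 CPM without and 85.4, 87.3 and 86.2 CPM with ALX-5407, so the groups overlapped. Its mean was 85.1 ± 1.56 and 86.3 ± 0.953 CPM and the log2 fold change 0.019 (SE 0.0679, 95% interval -0.12 to 0.16, adjusted p = 0.845 in edgeR). St3gal6 (ENSMUSG00000022747, chr16:58468125-58524243) had 4.39, 3.51 and 3.90 CPM without and 3.14, 3.51 and 3.59 CPM with the drug, and a log2 fold change of -0.20 (SE 0.183, 95% interval -0.59 to 0.18, adjusted p = 0.386 in edgeR). The St3gal6 interval is wider because its counts were low, from 110 to 143 per library, and both intervals include 0. Both genes overlap a gene on the opposite strand, St3gal4 with 4930581F22Rik over 14.1% of its exon bases and St3gal6 with Dcbld2 over 25.97%, and since the strand setting of the counting is not given, reads there cannot be assigned to one of them.

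Beside these, St3gal1, an α-2,3-sialyltransferase that acts mainly on core 1 O-glycans, fell from 206 ± 11.3 to 111 ± 2.93 CPM (log2 fold change -0.89, SE 0.0709, adjusted p = 6.20e-08 in edgeR), and St3gal5, the GM3 ganglioside synthase, rose from 1.66 ± 0.632 to 8.19 ± 1.17 CPM (2.30, SE 0.227, adjusted p = 5.45e-07). Of the 6 St3gal enzymes, by level per exon length, St3gal4 held 43.4% ± 2.13 without and 50.5% ± 1.07 with ALX-5407, St3gal1 held 44.6% ± 1.03 and 27.6% ± 0.216, and St3gal5 held 0.940% ± 0.357 and 5.36% ± 0.857.

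**Figure D3:**
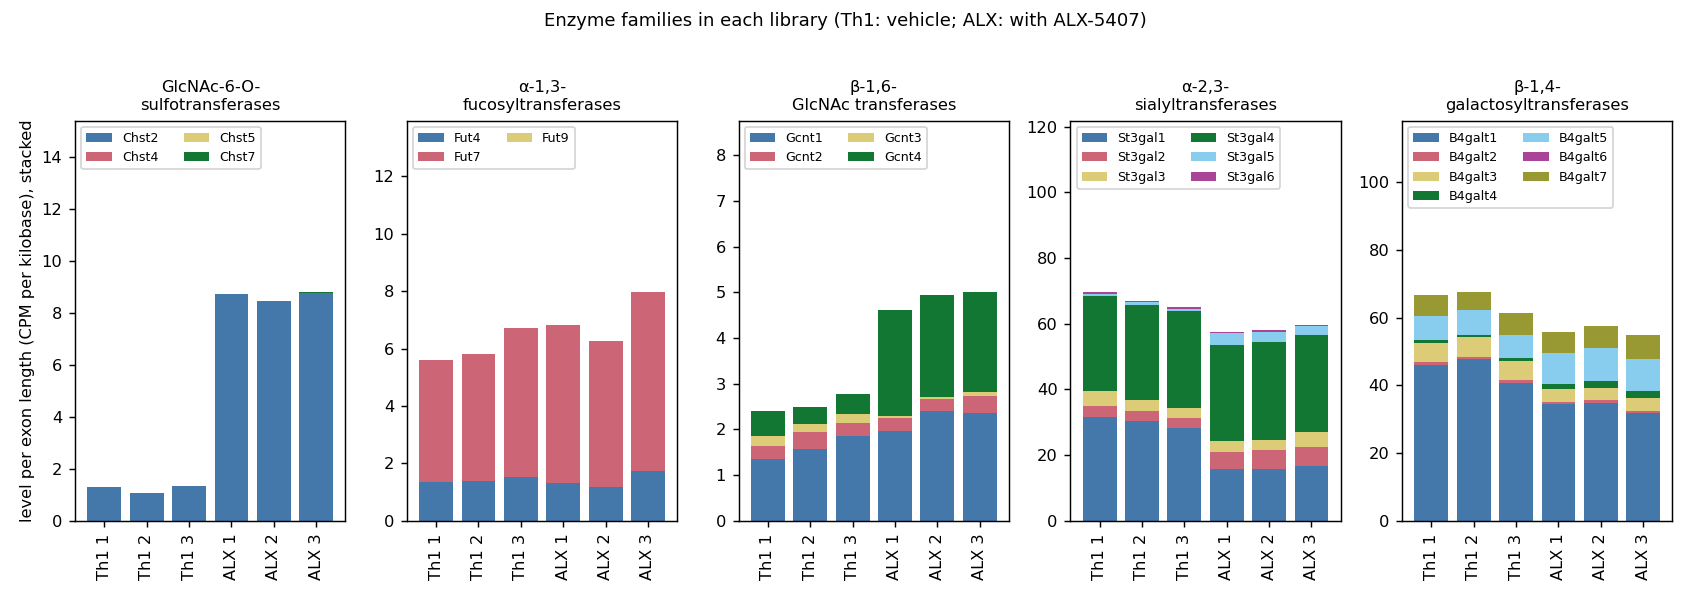
Stacked levels per exon length (CPM per kilobase, linear axes from 0) of 5 enzyme families in each library, with 3 Th1 libraries on the left of each panel and 3 ALX-5407 libraries on the right. The family of Chst2 consists almost wholly of Chst2, and Gcnt4 makes up 17.6% of the Gcnt family without and 46.3% with ALX-5407.

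Selplg (ENSMUSG00000048163, chr5:113818536-113832644) encodes PSGL-1, the principal P-selectin ligand of leukocytes. It had 467, 450 and 379 CPM in Th1 libraries and 389, 398 and 372 CPM with ALX-5407, and Th1 replicate 3 lay within the range of the treated libraries. The means were 432 ± 46.8 and 386 ± 13.3 CPM, and the log2 fold change was -0.16 (SE 0.0812, 95% interval -0.33 to 0.011, adjusted p = 0.117 in edgeR). Without Th1 replicate 3 it passed the test as lower (-0.26, adjusted p = 0.00244), as it did under upper quartile scaling (-0.21, adjusted p = 0.0403). A stretch of 122 bases of its transcript matches Gtpbp4 and one of 116 bases matches Gm37750, and how reads with several matches were counted is not given.

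Cd44 (ENSMUSG00000005087, chr2:102811141-102901665, up to 19 exons) encodes the hyaluronan receptor, a marker of activated T cells that can also carry E-selectin ligands when it is glycosylated. Its level was 149, 156 and 137 CPM without and 98.6, 107 and 113 CPM with ALX-5407, and all treated libraries lay below all Th1 libraries. The mean fell from 147 ± 9.85 to 106 ± 7.30 CPM (log2 fold change -0.47, SE 0.0771, 95% interval -0.63 to -0.31, adjusted p = 9.97e-05 in edgeR). Of 10 other carriers of selectin ligands listed, 5 were tested and 1 was lower, Cd24a, from 56.7 ± 3.22 to 31.3 ± 0.824 CPM, and none was higher. That is 20% called, beside 47.7% of all tested genes. Spn, which encodes CD43, and Glg1, which encodes the E-selectin ligand ESL-1, had log2 fold changes of -0.04 and -0.12 and did not pass the test.

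Compared with one another on a per-length scale, the genes covered a wide range, and carriers and enzymes were interleaved. In Th1 libraries the order from the highest level was Selplg (101 ± 11.0 CPM per kilobase), B4galt1 (44.9 ± 3.68), St3gal4 (29.1 ± 0.532), Cd44 (21.7 ± 1.45), Fut7 (4.61 ± 0.492), Gcnt1 (1.59 ± 0.259), Fut4 (1.43 ± 0.0907), Chst2 (1.23 ± 0.132) and St3gal6 (0.637 ± 0.0717). Of the neighbours in that order, Gcnt1 and Fut4 overlapped in their libraries and the others did not. With ALX-5407 the same order held except that Chst2, at 8.65 ± 0.156 CPM per kilobase, stood 5th, above Fut7 at 5.61 ± 0.587, Gcnt1 at 2.24 ± 0.241 and Fut4 at 1.41 ± 0.282, and no neighbours overlapped. Selplg remained first at 90.4 ± 3.10 and St3gal6 last at 0.553 ± 0.0389 CPM per kilobase.

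The other genes of the pathway were taken from 10 lists of 134 genes in all, of which 102 were tested. Of these, 35 were higher with ALX-5407 (34.3%), 20 were lower (19.6%) and 47 did not pass the test, with a median log2 fold change of 0.092. Over all tested genes 24.5% were higher, 23.2% lower and 47.7% called in either direction, beside 53.9% of these. In the sulfation list 5 of 10 tested genes were higher and 2 lower. Tpst1 and Tpst2 encode the tyrosylprotein sulfotransferases, and sulfated tyrosines are part of the site on PSGL-1 that P-selectin binds. Tpst1 rose from 10.6 ± 0.758 to 25.0 ± 0.342 CPM (log2 fold change 1.24, SE 0.102, adjusted p = 8.76e-08 in edgeR). Tpst2 rose from 62.9 ± 7.27 to 75.1 ± 5.23 CPM (0.26, SE 0.0879, adjusted p = 0.0244). Slc26a2, a sulfate transporter, rose by 0.45 on the log2 scale. The synthases of the sulfate donor PAPS, Papss1 and Papss2, fell, Papss1 from 89.9 ± 2.82 to 70.6 ± 1.73 CPM and Papss2 from 3.70 ± 1.10 to 1.48 ± 0.180 CPM. Of the 6 tested sulfotransferases that act on other glycans, Chst14 and Chst10 rose and Ust and Chst15 fell.

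In the fucosylation list 5 of 11 tested genes were higher and none lower, 45.5% called beside 47.7% of all tested genes, with a median log2 fold change of 0.28, among them Slc35c1, the GDP-fucose transporter of the Golgi, from 34.2 ± 2.76 to 47.2 ± 2.37 CPM, and Fut8, which adds core fucose to N-glycans, from 5.66 ± 0.703 to 11.4 ± 0.755 CPM. The list on O-glycan initiation and cores had 6 of 18 higher and 2 lower (Gcnt3 and Galnt14, both low in counts), and C1galt1, the core 1 synthase whose product Gcnt1 branches, rose from 43.2 ± 2.28 to 83.3 ± 8.88 CPM. In the sialylation list 5 of 19 were higher and 4 lower, with St8sia1, the GD3 synthase, rising from 51.0 ± 3.98 to 97.9 ± 2.16 CPM and St8sia4 falling from 90.5 ± 14.99 to 66.3 ± 2.13 CPM. The lactosamine list had 2 of 12 higher and 4 lower, Slc35a2, the UDP-galactose transporter, among the latter at a log2 fold change of -0.30. The hexosamine supply list had 1 of 8 higher, Uap1l1, and 3 lower, among them Nagk and Uap1.

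Of 11 tested N-glycan trimming and branching genes, 9 were higher and none was lower, where 24.5% of all tested genes were higher and 23.2% lower, with a median log2 fold change of 0.62, and Man2a1 rose from 55.7 ± 2.85 to 106 ± 1.94 CPM and Man1a from 141 ± 5.48 to 207 ± 6.34 CPM. From the list of selectin genes, Selp, which encodes P-selectin, fell from 19.7 ± 1.67 to 11.2 ± 2.03 CPM (log2 fold change -0.82, adjusted p = 7.21e-05 in edgeR).

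**Figure D4:**
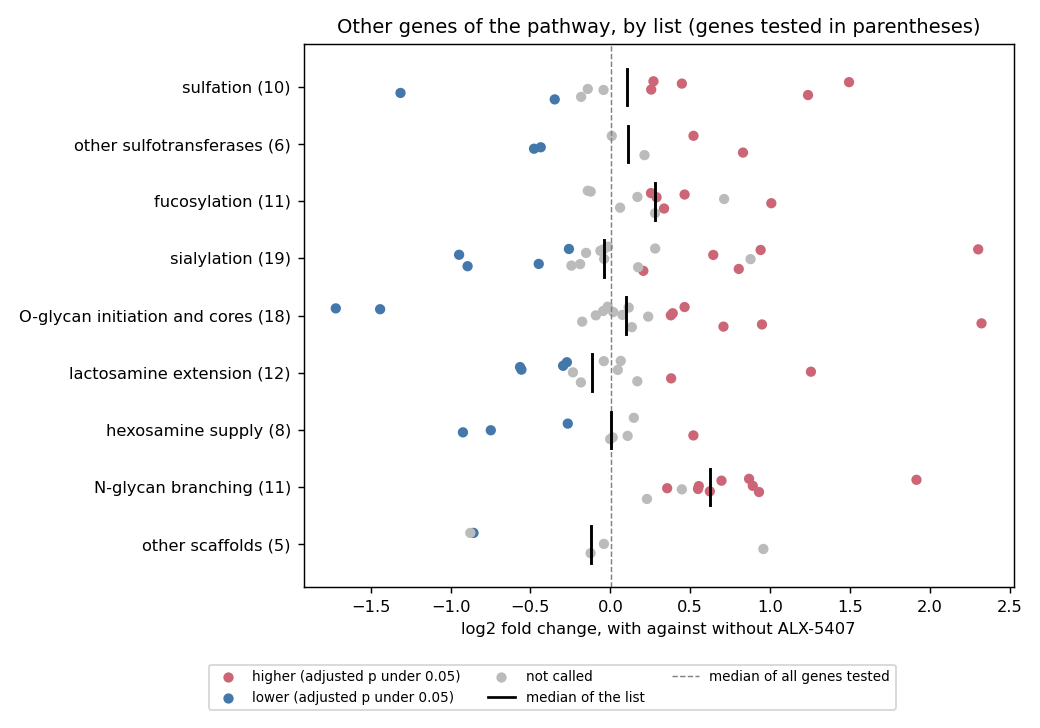
Log2 fold change with against without ALX-5407 of each tested gene in 9 of the pathway lists (red, higher and blue, lower at adjusted p under 0.05, grey, did not pass), with list medians as bars and the median over all genes as a dashed line. The N-glycan branching list has the highest median of those drawn, 0.62, and the other scaffolds the lowest, -0.12.

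The genes whose pattern over the 6 libraries was nearest to that of Chst2 were sought among tested genes averaging 50 counts or more, by the root mean square distance of centred log2 CPM. They were Eya2 (distance 0.150, 0.539 ± 0.118 to 3.76 ± 0.453 CPM), Cdr2l (0.156, 0.812 ± 0.0841 to 6.18 ± 0.287 CPM), Map1b (0.267, 4.09 ± 0.0952 to 20.8 ± 1.94 CPM), Gcnt4 (0.274) and Slc7a11 (0.279, 1.95 ± 0.135 to 9.71 ± 0.252 CPM). All have higher levels with ALX-5407, as the measure of likeness requires.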

How the data were processed

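RNA from 6 cultures of mouse CD4+ T cells was sequenced, 3 under Th1 conditions with vehicle and 3 with ALX-5407. The labels describe capture of messenger RNA on poly-T beads, whereas the methods name ribosomal RNA depletion. The authors deposited raw counts, whole numbers of reads per gene and library, without normalization or pooling. The submitters' processing notes name fastp, HISAT2 2.0.5, featureCounts 1.5.0-p3 and the build mm10. The annotation release, the strand setting and the treatment of reads with several matches are not given in the sources used here. GENCODE M21 (GRCm38) holds 54409 of the listed identifiers, 98.3% of them at identical coordinates, and exons and overlaps were taken from it.

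Counts were tested in edgeR 4.0.16 (R 4.3.3) after filterByExpr (minimum count 10, minimum total 15) and TMM scaling (factors 0.965 to 1.03), with the quasi-likelihood test and Benjamini-Hochberg adjustment over 15938 genes. A gene was called at an adjusted p under 0.05. CPM used the scaled library sizes, and CPM per kilobase used the deposited gene length. Each model was tested on simulated data. Depth was 30801753 to 36727788 counts per library, and intervals cover the spread between 3 cultures a group. The alternatives were other scalings and filters, DESeq2 1.42.0, limma 3.58.1 (voom), the replicate number as a block, and leaving out each library. Near copies of the genes were sought with BLAST 2.17.0, promoter windows came from RefSeq (8 of 9 genes matched), and figures were drawn with matplotlib 3.10.9 in Python 3.11.15.

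The 9 genes and all lists were chosen with earlier results of these data known. Beyond the 9, the text names the up to 2 called genes with the smallest p in each direction of each list (mean of at least 50 counts), the 5 genes most like Chst2 (offset 0.1 CPM), and genes that overlap a member. Spn, Glg1, Tpst2, Galnt14 and the enzymes of each family were named outside this rule, with their values seen. One gene that this rule names is not reported here. No column of per-sample values was left unused.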

Additional observations from a re-analysis of the deposited data

How the results depend on the processing

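Of the results of the 8 genes other than Chst2 under each alternative, 100 of 112 kept their direction and their side of the threshold, as did 388 of 392 for the named pathway genes, and 67 of 70 counts stayed within 1.5 times. No alternative moved the median log2 fold change of all genes by over 0.1. The number of the 8 genes called higher was 2 with scaling by total count alone, where Fut7 joined Gcnt1, and ranged from 0 to 2 when each library was left out (0 without Th1 replicate 1, 2 without Th1 replicate 3). The number called lower ranged from 2 to 3 when each library was left out and was 3 under upper quartile scaling, with Selplg as the third. The number past a log2 fold change of 1 was 0 throughout. The pathway genes called higher ranged from 30 to 34 and those called lower from 15 to 20 when each library was left out, and scaling by total count alone gave 42 higher.

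Genes near 0 changed sign. Fut4, at -0.020, was 0.039 with scaling by total count alone and ranged from -0.19 to 0.095 when each library was left out. St3gal4, at 0.019, was -0.035 under upper quartile scaling, -0.0100 with a minimum mean of 50 counts, and ranged from -0.0030 to 0.033 when each library was left out. Neither passed the test under any of these settings. Chst2 lay between 2.71 and 2.86 in all alternatives. The calls of Chst10 (without Th1 replicate 2) and Uap1 (without ALX-5407 replicate 2) were lost.

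With the replicate number as a block, 1 of the 8 genes was higher, 2 were lower and 0 passed a log2 fold change of 1, and 36 pathway genes were higher and 20 lower. The labels share replicate numbers between the groups. The deviations of samples with the same number correlated at 0.024, 0.023 and 0.13, and those of samples with different numbers at -0.12 to 0.11. The numbers were not taken to pair the samples, although the highest value, 0.13, came from samples with the same number. Depth is a limit for St3gal6 and Fut4, which had the lowest mean counts, with 110 to 143 and 179 to 247 per library. For Fut4 the spread between the ALX-5407 libraries, from 4.85 to 7.04 CPM, is a limit as well.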

Other observations

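Within 500 kb on each side of Chst2 lie 19 genes, of which 5 were tested. Of these 5, 1 was higher with ALX-5407 and none was lower, where 24.5% of all tested genes were higher and 23.2% lower. Slc9a9, named after its values were seen, encodes an endosomal sodium-proton exchanger and rose from 3.89 ± 0.631 to 6.95 ± 0.384 CPM (SD, n = 3 each, log2 fold change 0.84 in edgeR). U2surp, the nearest tested gene, had a log2 fold change of -0.11 and did not pass the test. The Chst2 promoter window overlaps, at its end furthest from the start, Gm37805, a transcript model on the opposite strand, with 0 to 2 counts per library without and 2 to 10 with ALX-5407.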
